A study of Mus musculus with 4 samples.

Results

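The 37 genes described here carry out glycolysis, the breakdown of glucose to lactate, or belong to the response of cells to low oxygen. They were chosen by gene symbol, with earlier results of these data known. Each of the 37 had a row among the 23337 gene rows of the deposited count table. Transcripts were counted by total RNA sequencing in cardiac cushions, the outflow tract and atrioventricular swellings from which heart valves form, of C57BL/6 mouse embryos at embryonic day 14.5. There were 2 libraries labelled wildtype and 2 labelled Nfatc1Cre;Brg1F/F mutant, in which both Brg1 alleles (the gene is Smarca4, and its ATPase drives SWI/SNF chromatin remodelling) are flanked by recombination sites and the Cre recombinase is driven from Nfatc1, a gene of the endocardium. GFP from a Cre reporter guided the isolation of the tissue, and a dissected cushion can also hold cells outside the Cre lineage. The labels give no further alleles of the wildtype littermates and no number of embryos per library. The spread behind each p-value is therefore that of these 4 libraries, and some of it may be technical. Where 2 values stand for a genotype, replicate 1 comes first.

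Glycolysis takes up glucose through membrane transporters, traps it by phosphorylation through hexokinase, splits it, and recovers energy in the steps from glyceraldehyde phosphate dehydrogenase to pyruvate kinase. Lactate dehydrogenase and a lactate exporter then let the pathway run without oxygen. When oxygen is low, the prolyl hydroxylases of the EGLN family stop marking the alpha subunits of the hypoxia-inducible factors (HIF) for destruction, and HIF binds ACGTG or GCGTG in DNA and raises many glycolytic genes along with genes of mitophagy, blood vessel tone and collagen folding. The embryonic heart develops at low oxygen and uses glycolysis more than the adult heart does.

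Reads in genes numbered 14104458 to 22426537 per library, so that 3 reads correspond to 0.132 to 0.212 CPM, a gene's reads scaled to the gene reads of its library. Smarca4, the targeted gene, stood at 251 and 231 CPM (wildtype) against 282 and 239 CPM (mutant), a log2 fold change of 0.11 ± 0.14 (SE), so the deletion was not visible in its counts, which cover the whole gene and the whole tissue. Mutant replicate 2 differed in sex from wildtype replicate 2, with Xist at 13.3 CPM against 2047 to 2659 CPM in the other 3. Each of 4 Y-linked genes had 1131 to 3384 reads there, 11 to 28 in wildtype replicate 2 and 0 in both others. Fixed marker lists of the cells a cushion can hold were summed in each library. Cardiomyocyte markers summed to 67649 to 75159 CPM in wildtype and 59609.6 to 65251 CPM in mutant libraries, with 12 of 14 below 0 on the log2 fold change scale and 0 past the threshold used here. Leukocyte markers summed to 146 to 149 and 215 to 247 CPM, with 11 of 11 above 0 and 1, Ptprc, past the threshold used here. Erythroid markers summed to 587 to 596 and 653 to 851 CPM, with 8 of 8 tested above 0 and the adult globins Hba-a1 and Hbb-b1 at 0 reads throughout. Reads that align to several places were not assigned to genes, so 0 reads in these rows do not show that adult globin transcripts were absent. Endocardial markers, which do not mark the whole Cre lineage, summed to 1377 to 1398 and 1299.6 to 1333 CPM, with 5 of 10 above 0 and none at 0. At an unadjusted edgeR p under 0.05, 2 of the 10 were lower in the mutant, Npr3 at 0.54-fold and Plvap at 0.66-fold. At that p 0 were higher, beside 1.9% lower and 3.88% higher of all genes tested. Cushion mesenchyme markers summed to 9342 and 9500 CPM against 10509.8 and 9172 CPM. Smooth muscle markers summed to 1514 and 1449 against 1474 and 1585 CPM, epicardial markers to 206 and 222 against 207 and 229.8 CPM, and hepatocyte markers to 7.99 and 8.01 against 11.8 and 19.1 CPM. With the replicate number as a block, 5 leukocyte, 1 erythroid and 2 hepatocyte markers passed higher in the mutant, beside 0.887% of all genes. In that fit 1 cardiomyocyte marker, Nppa at 0.47-fold, and 1 endocardial marker, Npr3, passed lower in the mutant.

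The question was whether endocardial deletion of Brg1 goes with other transcript levels of these genes. Of the 37 genes, 36 passed the low count filter and could be tested, and 0 of them passed the threshold of 0.05 for the p adjusted over all genes tested (edgeR's quasi-likelihood test, Benjamini-Hochberg), where 0.0629% of 14316 genes did, 0.0559% higher and 0.00699% lower in the mutant. The smallest p-values were those of Egln3, an oxygen-sensing prolyl hydroxylase, P4ha2, a collagen prolyl hydroxylase, and Hk2, the inducible hexokinase, which were 1.48-fold, 1.47-fold and 1.38-fold higher in the mutant libraries. Those 3 and Slc2a1, Ldha and Pfkfb3 had an unadjusted p under 0.05 and higher mutant values, 6 of 36, beside 3.88% of all genes tested, and 0 of 36 had lower mutant values at that p, beside 1.9%. In bulk tissue, more cells of a type and more RNA per cell cannot be told apart.

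As a list, 28 of the 36 had a log2 fold change above 0, beside 49.5% of all genes tested, with a median of 0.23 beside -0.0027 over all genes. The list was chosen with earlier results of these data known, so it was not tested as a set. In 14 of the 36, both mutant libraries lay above both wildtype libraries, beside 17% of all genes, and in 1, Hif1a, both lay below, beside 16.3%. The median rested in part on mutant replicate 2. Without that library it was 0.11 with 21 of 36 above 0, and without mutant replicate 1 it was 0.26 with 31 of 36 above 0. The count higher at an unadjusted p under 0.05 was 14 in place of 6 without mutant replicate 1, where 3.54% of all genes were higher at that p, and it was 6 without mutant replicate 2, where 7.66% were. Leaving out 1 library also changed calls. Egln3 and Bnip3 passed without mutant replicate 1, and Pfkfb3 and P4ha2 without mutant replicate 2, in fits where 1.24% and 3% of all genes passed.

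**Figure D1:**
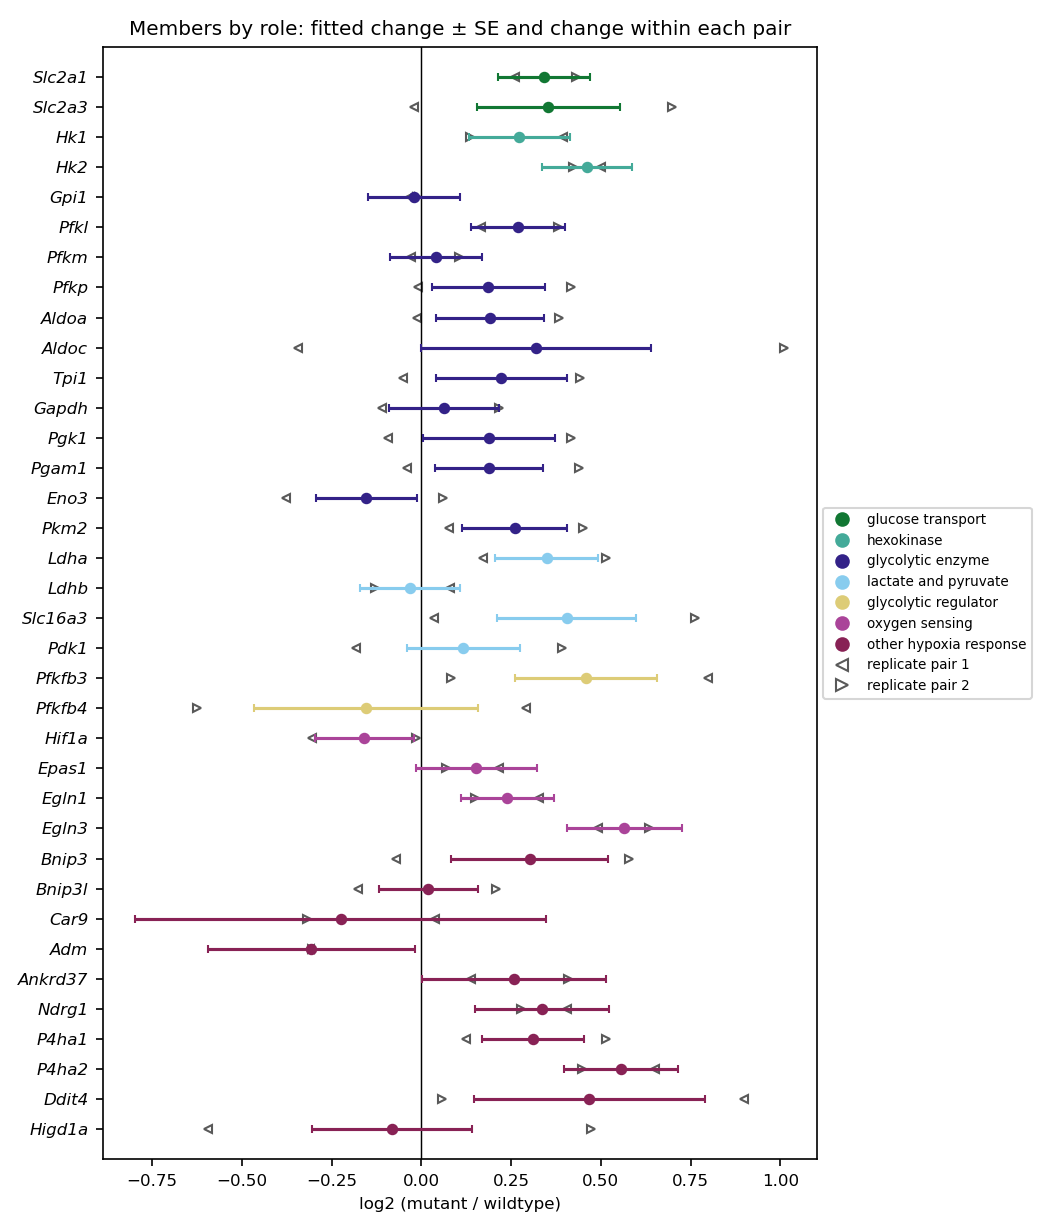
Log2 ratio of mutant to wildtype (x axis) for the 36 tested genes, ordered and coloured by role. Filled points with bars are the fitted change ± SE over all 4 libraries, and open triangles are the change within replicate pair 1 (left-pointing) and pair 2 (right-pointing). Egln3 and P4ha2 lie furthest to the right at 0.57 and 0.56, Adm furthest to the left at -0.31, and the pairs lie far apart for Aldoc, Higd1a and Pfkfb4.

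With the replicate number as a block, 0 of the 36 passed, beside 0.887% of all genes, and 5 were higher at an unadjusted p under 0.05, the 6 above without Ldha, beside 4.22%, and 0 lower, beside 2.07%. By DESeq2 0 of the 36 passed, beside 0.426%, and by limma-voom 0, beside 0.0489%. Of the genes, 34 had a row in the authors' deposited table. There 0 were past its adjusted p of 0.05, beside 0.374% of its rows, and 5 were higher in the mutant at an unadjusted p under 0.05, beside 2.61%, and 0 lower, beside 1.89%.

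The 2 facilitative glucose transporters were Slc2a1, which encodes GLUT1, the transporter of most embryonic cells, and Slc2a3, which encodes GLUT3, a transporter of high affinity. Slc2a1 (chromosome 4, 119108711 to 119137983) stood at 149 and 130.3 CPM (wildtype) against 179 and 175 CPM (mutant). Both mutant libraries lay above both wildtype libraries, and the log2 fold change was 0.34 ± 0.13 (SE), with an unadjusted p of 0.0250 and an edgeR adjusted p of 0.747. Slc2a3 stood at 30.6 and 26.5 CPM (wildtype) against 30.1 and 43.1 CPM (mutant). Here mutant replicate 2 alone stood above the other libraries, and the groups overlapped.

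Hexokinase commits glucose to the cell, with Hk1 as the constitutive form and Hk2 as the form of muscle and of cells under growth or hypoxic stimulus. Hk2 (chromosome 6, 82725025 to 82774454) stood at 81.6 and 88.5 CPM (wildtype) against 115 and 119 CPM (mutant). The 2 libraries of each genotype lay close together and the genotypes did not overlap, with a log2 fold change of 0.46 ± 0.13, an unadjusted p of 0.00503 and an edgeR adjusted p of 0.379. Hk1 stood at 244 and 236 CPM (wildtype) against 321 and 259.8 CPM (mutant), also without overlap, at 0.27 ± 0.14. Per kilobase of exon, the level of Hk1 was above that of Hk2 in every library, and Hk2 made up 22.3% and 24.4% of the summed level of Hk1, Hk2 and Hk3 in wildtype and 23.6% and 28.1% in mutant replicates 1 and 2.

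The promoters of the 6 genes with an unadjusted p under 0.05 are shown because of that p, and that of Gpi1 because its log2 fold change was nearest to 0 among the tested genes with a RefSeq promoter entry. The 6 hold ACGTG, one of the core sequences that HIF binds, as do promoters of 17 other members, among them Pfkm and Gapdh with log2 fold changes of 0.040 and 0.063, and that of Gpi1 does not, so the display is no contrast by motif. Each runs from 250 bases before to 50 bases after a RefSeq transcription start on GRCm38.p6, the assembly also called mm10, is written 5′ to 3′ on the gene's strand, and has ACGTG on either strand in capitals, so that a match on the other strand reads CACGT and a match on both CACGTG. Where RefSeq lists several starts, the one with most matches is shown.
Slc2a1 (chr4:119108495-119108794, plus strand): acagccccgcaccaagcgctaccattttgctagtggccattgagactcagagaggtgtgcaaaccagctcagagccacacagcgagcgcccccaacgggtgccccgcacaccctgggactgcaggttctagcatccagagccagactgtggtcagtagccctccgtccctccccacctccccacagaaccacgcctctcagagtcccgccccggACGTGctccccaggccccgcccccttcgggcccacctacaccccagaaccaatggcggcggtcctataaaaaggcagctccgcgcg
Hk2 (chr6:82774405-82774704, minus strand): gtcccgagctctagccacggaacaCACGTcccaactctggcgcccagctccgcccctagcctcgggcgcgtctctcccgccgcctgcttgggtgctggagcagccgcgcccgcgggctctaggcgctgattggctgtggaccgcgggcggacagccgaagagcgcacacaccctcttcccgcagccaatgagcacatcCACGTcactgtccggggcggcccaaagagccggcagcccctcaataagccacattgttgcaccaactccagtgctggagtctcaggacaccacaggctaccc
Ldha (chr7:46845554-46845853, plus strand): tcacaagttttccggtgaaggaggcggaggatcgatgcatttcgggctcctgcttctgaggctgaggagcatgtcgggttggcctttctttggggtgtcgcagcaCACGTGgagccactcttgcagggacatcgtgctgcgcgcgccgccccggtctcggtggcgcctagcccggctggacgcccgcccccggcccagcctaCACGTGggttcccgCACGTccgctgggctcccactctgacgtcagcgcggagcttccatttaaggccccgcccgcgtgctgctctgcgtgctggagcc
Pfkfb3 (chr2:11502041-11502340, minus strand): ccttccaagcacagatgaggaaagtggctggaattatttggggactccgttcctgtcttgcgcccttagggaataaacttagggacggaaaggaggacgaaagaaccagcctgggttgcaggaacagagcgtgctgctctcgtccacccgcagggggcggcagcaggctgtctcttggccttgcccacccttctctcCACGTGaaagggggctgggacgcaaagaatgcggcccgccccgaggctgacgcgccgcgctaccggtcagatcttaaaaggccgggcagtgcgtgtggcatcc
Egln3 (chr12:54203825-54204124, minus strand): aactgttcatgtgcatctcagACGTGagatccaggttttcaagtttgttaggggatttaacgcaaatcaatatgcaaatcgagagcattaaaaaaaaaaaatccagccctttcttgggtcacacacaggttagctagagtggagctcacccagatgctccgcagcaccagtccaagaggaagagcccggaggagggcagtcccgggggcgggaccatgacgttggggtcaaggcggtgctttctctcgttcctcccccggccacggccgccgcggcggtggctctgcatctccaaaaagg
P4ha2 (chr11:54100674-54100973, plus strand): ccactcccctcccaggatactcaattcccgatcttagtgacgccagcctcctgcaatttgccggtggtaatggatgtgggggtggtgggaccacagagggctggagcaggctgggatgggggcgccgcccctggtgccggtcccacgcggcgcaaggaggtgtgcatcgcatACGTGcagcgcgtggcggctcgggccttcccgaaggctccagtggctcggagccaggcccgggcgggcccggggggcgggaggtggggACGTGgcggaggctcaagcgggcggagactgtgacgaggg
Gpi1 (chr7:34230287-34230586, minus strand): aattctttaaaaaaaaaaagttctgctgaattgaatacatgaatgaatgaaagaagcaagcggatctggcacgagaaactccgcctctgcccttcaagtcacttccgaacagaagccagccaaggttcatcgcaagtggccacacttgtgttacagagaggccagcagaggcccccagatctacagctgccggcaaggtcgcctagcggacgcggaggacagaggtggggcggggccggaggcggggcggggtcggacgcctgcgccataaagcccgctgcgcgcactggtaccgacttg

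RefSeq entries matched 33 of the 37 genes with 46 promoters, and Slc2a3, Epas1, Bnip3l and Ndrg1 were not matched. ACGTG on either strand was in 26 of these 46 promoters, 56.5%, beside 19.6% of all 32851 promoters of that length and 24.8% of the 12820 promoters of tested genes matched by symbol. GCGTG was in 28 of the 46, 60.9%, beside 32.4% and 49.1%. The median number of CG pairs was 20.5 in promoters of the members and 20.0 in those of the tested genes. It was not computed for all 32851 promoters. Many of the genes are listed here because they are known HIF targets, so a high share is not independent of how they were chosen, and a match is a description of letters and not a measured site. Of the 23 tested members with ACGTG in a promoter, 20 had a log2 fold change above 0, with a median of 0.27. Of the 9 without it 4 did, with a median of -0.021, beside 49.5% of all genes tested. Direction by motif over all genes tested was not computed, and a part of the motif in the mutant values was not tested.

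The middle steps of the pathway showed small differences. Glucose phosphate isomerase, Gpi1, stood at 316 and 339 CPM (wildtype) against 309 and 336 CPM (mutant), at -0.021 ± 0.13 on the log2 fold change scale. Phosphofructokinase, the main control point, is built from the liver type Pfkl, the muscle type Pfkm and the platelet type Pfkp. Pfkl stood at 123 and 106 CPM (wildtype) against 138 and 138 CPM (mutant), which did not overlap, at 0.27 ± 0.13 with an edgeR adjusted p of 0.891. Pfkp had its low value in wildtype replicate 2, 259 CPM, while the other 3 libraries lay between 346 and 348 CPM, and Pfkm ranged from 123 to 141 CPM with both extremes in mutant libraries. Per kilobase, Pfkp was the most abundant of the 3 in every library, at 45.5% to 51.9% of their sum, and Pfkl held 21.2% and 21.4% in wildtype and 23.4% and 22.4% in mutant libraries.

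Aldolase splits the 6-carbon sugar, and its muscle form Aldoa outweighed the brain form Aldoc, at 99.3% to 99.5% of their summed level per kilobase. Aldoc lay between 3.98 and 8.12 CPM. Aldoa stood at 767 and 711 CPM (wildtype) against 760.2 and 928 CPM (mutant), with only mutant replicate 2 above the rest, at 0.19 ± 0.15. The same library was highest for triose phosphate isomerase Tpi1, at 352 CPM against 235 to 259 CPM in the other 3. Glyceraldehyde phosphate dehydrogenase Gapdh, the most abundant of the 36 tested genes per kilobase, stood at 709.9 and 720.1 CPM (wildtype) against 658 and 836 CPM (mutant). Its 2 wildtype libraries lay between the 2 mutants, at 0.063 ± 0.15 and an edgeR adjusted p of 0.987.

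Phosphoglycerate kinase Pgk1, the first step that makes ATP, is X-linked (chromosome X, 106187100 to 106203699). It stood at 669.5 and 690.3 CPM (wildtype) against 628 and 922 CPM (mutant), at 0.19 ± 0.18. The high value was in the library that differed in sex, and the part of sex in it was not tested. Phosphoglycerate mutase Pgam1 stood at 393 and 307 CPM (wildtype) against 382 and 416 CPM (mutant), where wildtype replicate 2 was low and the groups overlapped. Without mutant replicate 2 the log2 fold changes of Pgk1, Tpi1 and Gapdh were -0.11, -0.090 and -0.11, so their direction turned without that library.

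Enolase makes phosphoenolpyruvate, with Eno1 as the ubiquitous and Eno3 as the muscle form. Eno3 stood at 160.5 and 144 CPM (wildtype) against 124 and 150.4 CPM (mutant), and mutant replicate 1 was low. Eno1 had 2 and 0 reads in the wildtype and 5 and 0 reads in the mutant libraries, below the filter, and gave no comparison. Of the 50-base stretches of its longest coding transcript, 72.2% also occurred in a transcript of another gene, 70.5% in Eno1b, a retrocopy that the table lists under the older symbol Gm5506. For Gapdh that share was 82.5%, with 11410 to 14952 reads per library, and the cause of the low Eno1 count was not tested. Pyruvate kinase Pkm2, the older symbol of Pkm, whose row counts both the PKM1 and PKM2 splice forms, stood at 852 and 731 CPM (wildtype) against 898 and 998 CPM (mutant). Those groups did not overlap, at 0.26 ± 0.15 and an edgeR adjusted p of 0.940.

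The fate of pyruvate is set by lactate dehydrogenase, by the lactate exporter MCT4, encoded by Slc16a3, and by Pdk1, a kinase that inhibits pyruvate dehydrogenase. Ldha, the lactate-forming subunit (chromosome 7, 46841475 to 46855627), stood at 529.5 and 505 CPM (wildtype) against 596 and 721 CPM (mutant). Both mutant libraries were above both wildtype libraries, mutant replicate 2 by more, at 0.35 ± 0.14 with an unadjusted p of 0.0381 and an edgeR adjusted p of 0.813. With the replicate block the unadjusted p of Ldha was 0.0705. Ldhb, the subunit of oxidative tissue, stood at 137 and 169 CPM (wildtype) against 145 and 154 CPM (mutant), which lay inside the wildtype range. As a share of the summed level of both subunits per kilobase, Ldha held 72.6% and 67.3% in wildtype and 73.9% and 76.3% in mutant libraries. Slc16a3 stood at 33.0 and 26.9 CPM (wildtype) against 33.8 and 45.7 CPM (mutant), with mutant replicate 1 only slightly above wildtype replicate 1. Pdk1 overlapped between genotypes, from 233 to 309.5 CPM, both extremes being mutant.

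**Figure D2:**
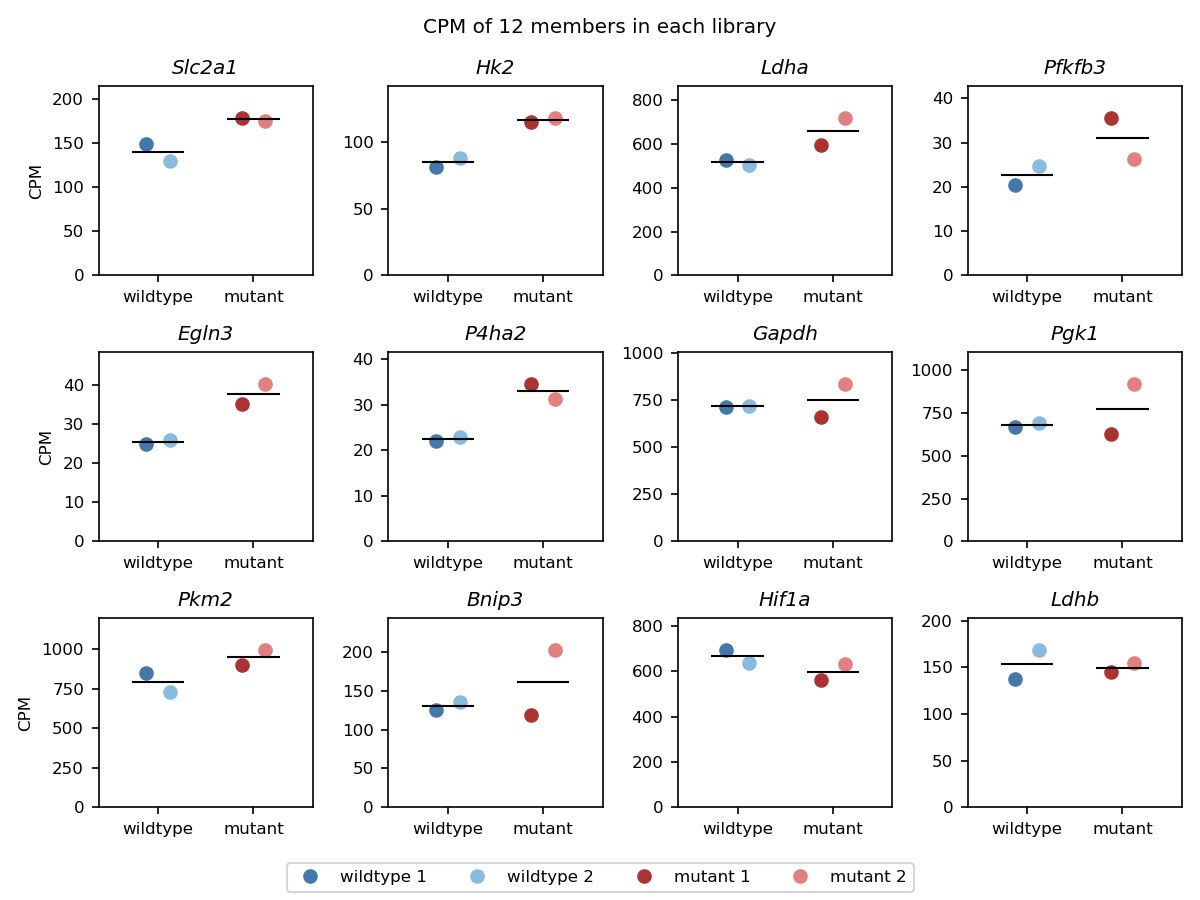
CPM (y axis, from 0) of 12 of the genes in each of the 4 libraries, with the group mean as a horizontal line. The 2 mutant points lie above both wildtype points for Slc2a1, Hk2, Ldha, Pfkfb3, Egln3, P4ha2 and Pkm2, mutant replicate 2 alone is high for Gapdh, Pgk1 and Bnip3, and both mutant points lie below for Hif1a.

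Pfkfb3 and Pfkfb4 encode enzymes that make fructose 2,6-bisphosphate, the activator of phosphofructokinase. Pfkfb3 (chromosome 2, 11471433 to 11554077) stood at 20.4 and 24.8 CPM (wildtype) against 35.6 and 26.3 CPM (mutant). Mutant replicate 1 was high and mutant replicate 2 close to wildtype replicate 2, at 0.46 ± 0.20 with an unadjusted p of 0.0451 and an edgeR adjusted p of 0.846. Without mutant replicate 2 the edgeR adjusted p was 0.0248, and over all alternatives it ranged from 0.0248 to 1.00. Pfkfb4 was low in every library, from 2.82 to 4.42 CPM.

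Among the oxygen sensors, Egln3, which is itself a HIF target and encodes PHD3 (chromosome 12, 54178981 to 54203860), had the largest log2 fold change of the 36 genes. It stood at 25.0 and 26.0 CPM (wildtype) against 35.2 and 40.4 CPM (mutant). Both mutant libraries stood clear of the wildtype ones, at 0.57 ± 0.16, with an unadjusted p of 0.00611 and an edgeR adjusted p of 0.413. Without mutant replicate 1 its edgeR adjusted p was 0.0436, in a range over the alternatives from that value to 1.00. Egln1, which encodes PHD2, the main sensor, stood at 73.0 and 80.0 CPM (wildtype) against 91.6 and 88.8 CPM (mutant) without overlap, at 0.24 ± 0.13. Egln3 made up 24.2% and 24.3% of the summed level of Egln1, Egln2 and Egln3 per kilobase in wildtype and 26.8% and 31.3% in mutant replicates 1 and 2.

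Hif1a, which encodes the alpha subunit HIF-1 alpha, was the most abundant gene of the oxygen-sensing group. It stood at 697 and 639 CPM (wildtype) against 564 and 632 CPM (mutant), at -0.16 ± 0.14 and an edgeR adjusted p of 0.972. Both mutant values were below the wildtype ones, that of mutant replicate 2 only slightly. Epas1, which encodes the endothelial subunit HIF-2 alpha, overlapped between genotypes, at 57.7 and 49.3 CPM (wildtype) against 67.1 and 51.7 CPM (mutant). Per kilobase Hif1a was 80.5% to 85.5% of the sum of Hif1a, Epas1 and Hif3a. HIF alpha subunits are regulated mostly as proteins, which RNA counts do not measure.

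Of the other hypoxia response genes, P4ha1 and P4ha2 encode the alpha subunits of the enzyme that hydroxylates collagen so that it can fold. P4ha2 (chromosome 11, 54100095 to 54131665) stood at 22.0 and 22.8 CPM (wildtype) against 34.7 and 31.2 CPM (mutant). The genotypes were well apart against the spread within each, at 0.56 ± 0.16 with an unadjusted p of 0.00674 and an edgeR adjusted p of 0.427, or 0.0369 without mutant replicate 2, in a range from that value to 1.00 over the alternatives. P4ha1 stood at 147 and 119 CPM (wildtype) against 161 and 169.7 CPM (mutant), at 0.31 ± 0.14 and an unadjusted p of 0.0544. Ndrg1, a stress response gene, was 14.3 and 18.0 CPM (wildtype) against 18.9 and 21.9 CPM (mutant), again without overlap.

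Bnip3 and its relative Bnip3l, which encode receptors for the removal of mitochondria, did not go 1 way in both pairs. Bnip3 stood at 124 and 136 CPM (wildtype) against 119 and 203 CPM (mutant). Mutant replicate 2 stood apart from the other 3 libraries, at 0.30 ± 0.22 over all. Without mutant replicate 2 the log2 fold change was -0.13, and without mutant replicate 1 the log2 fold change was 0.64 with an edgeR adjusted p of 0.0110, against 0.961 with all 4, in a range over the alternatives from the former to 1.00. Bnip3l lay between 192 and 231 CPM, both mutant. Higd1a, a gene of mitochondrial respiration, was 71.1 and 46.2 CPM (wildtype) against 47.0 and 64.1 CPM (mutant). Its means of 58.6 CPM (wildtype) and 55.6 CPM (mutant) lay closer together than the libraries within either genotype.

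Car9, which encodes a carbonic anhydrase known as a marker of hypoxia, was close to the counting limit in every library, with 8 and 13 reads in wildtype and 10 and 9 reads in mutant replicates 1 and 2. Adm, which encodes the vasodilator adrenomedullin, had the lowest log2 fold change of the list, -0.31 ± 0.29 with an edgeR adjusted p of 0.979, and 5.43 and 4.04 CPM (wildtype) against 4.36 and 3.25 CPM (mutant), which overlapped. Ankrd37 stood at 8.47 and 5.62 against 9.33 and 7.49 CPM, and Ddit4, an inhibitor of the growth kinase mTOR, 2.24 and 3.66 against 4.27 and 3.81 CPM. Of the 10 hypoxia genes outside oxygen sensing, 7 had log2 fold changes above 0 and 3 below.

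The 2 replicate pairs, mutant 1 against wildtype 1 and mutant 2 against wildtype 2, differed in which genes were higher. In pair 1, 19 of the 36 genes were higher in the mutant, beside 49.7% of all genes, with a median log2 ratio of 0.037. In pair 2, 30 of the 36 were, beside 50.5%, with a median of 0.39. Both pairs were higher for 16 genes, beside 24.3% of all genes, and both lower for 3, beside 24.1%. Of the 14 hexokinases and glycolytic enzymes that could be tested, 4 were higher in pair 1, with a median of -0.030, and 13 in pair 2, with a median of 0.40. Their summed level, to which the nearly empty Eno1 row added 0 to 0.22 CPM, was 5042 and 4727 CPM (wildtype) against 5043 and 5949 CPM (mutant). The ratio was 1.00 in pair 1 and 1.26 in pair 2.

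Some genes were higher in both pairs by similar amounts. Hk2 was at 0.50 in pair 1 and 0.42 in pair 2, Egln3 at 0.49 and 0.63, P4ha2 at 0.65 and 0.45, and Slc2a1 at 0.26 and 0.43 on the log2 scale. These genes are among those with an unadjusted edgeR p under 0.05, which favours such agreement, so it is no further support. Adm was lower by similar amounts, at -0.31 and -0.30. Pfkfb3, at 0.80 and 0.083, was high in pair 1 alone, and Slc16a3, at 0.036 and 0.76, in pair 2 alone. Cardiomyocyte markers also differed between pairs, with a summed mutant to wildtype ratio of 0.793 in pair 1 and 0.965 in pair 2. Their median log2 ratio was -0.30 in pair 1 and 0.0081 in pair 2, where 8 of 14 were higher, beside 50.5% of all genes. Leukocyte marker sums had ratios of 1.44 and 1.69. Pair 2 differs in sex as well as genotype. The part of cell makeup or sex in the glycolytic genes was not tested.

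**Figure D3:**
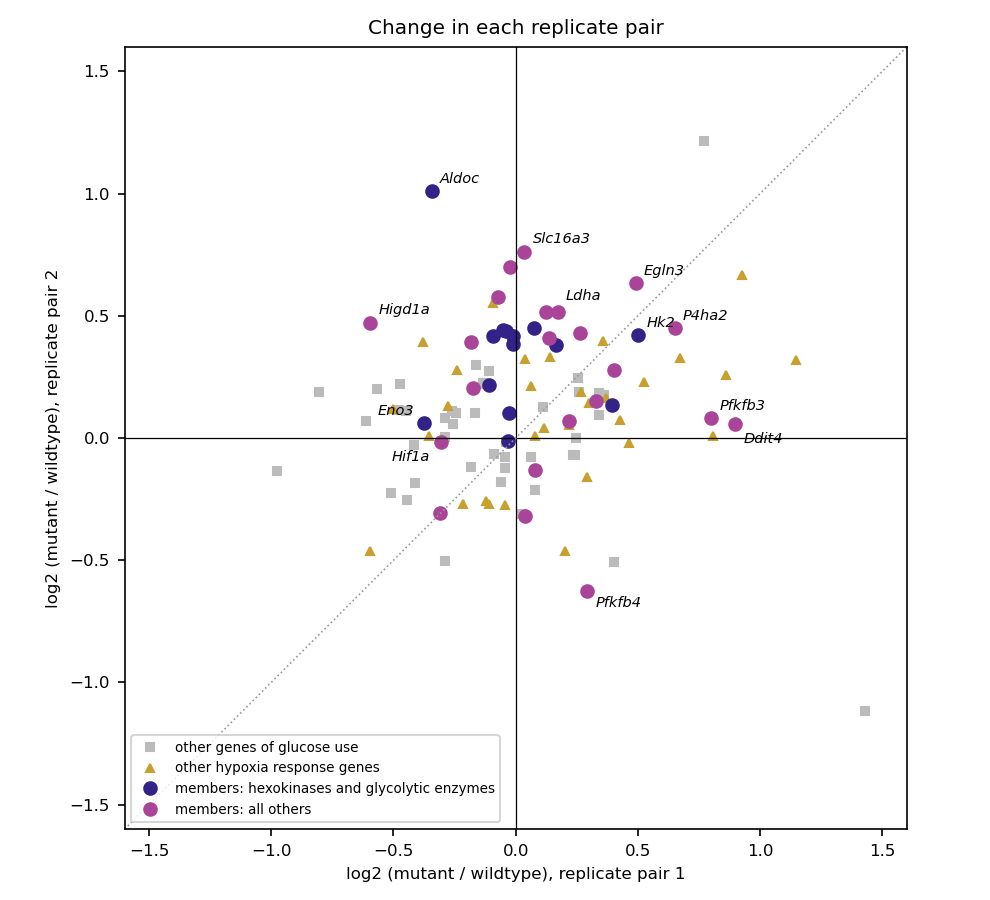
Log2 ratio of mutant to wildtype in replicate pair 1 (x axis) and pair 2 (y axis) for the 36 genes as circles, with other genes of glucose use as grey squares and other hypoxia response genes as triangles. Pfkp, Aldoa, Tpi1, Pgk1, Pgam1 and Pkm2 lie near 0 on the x axis and between 0.38 and 0.45 on the y axis, Aldoc and Eno3 lie to the left of 0, and Hk2, Egln3 and P4ha2 lie near the dotted line of equal change.

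The sequence of several glycolytic genes recurs in pseudogenes, and reads that align to several places, 16.1% to 17.0% of tallied reads, were not assigned to genes. The share of 50-base stretches also found in a transcript of another gene was 82.5% for Gapdh, 68.0% for Pgk1, 62.4% for Bnip3, 41.5% for Pgam1 and 34.4% for Pkm2. It was 16.6% for Ldha, 1.74% for Slc2a1 and 0.631% for Pfkfb3. It was 0% for Hk2, Egln3 and P4ha2. Levels of Gapdh, Pgk1, Bnip3 and Pgam1 are therefore uncertain, also because the sources used here do not state the read length. Per kilobase of exon the highest mean levels over the 4 libraries were those of Gapdh at 489, Pgk1 at 398, Pkm2 at 335, Ldha at 310 and Aldoa at 309 CPM per kilobase, and the values of Ldha and Aldoa overlapped across libraries.

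**Figure D4:**
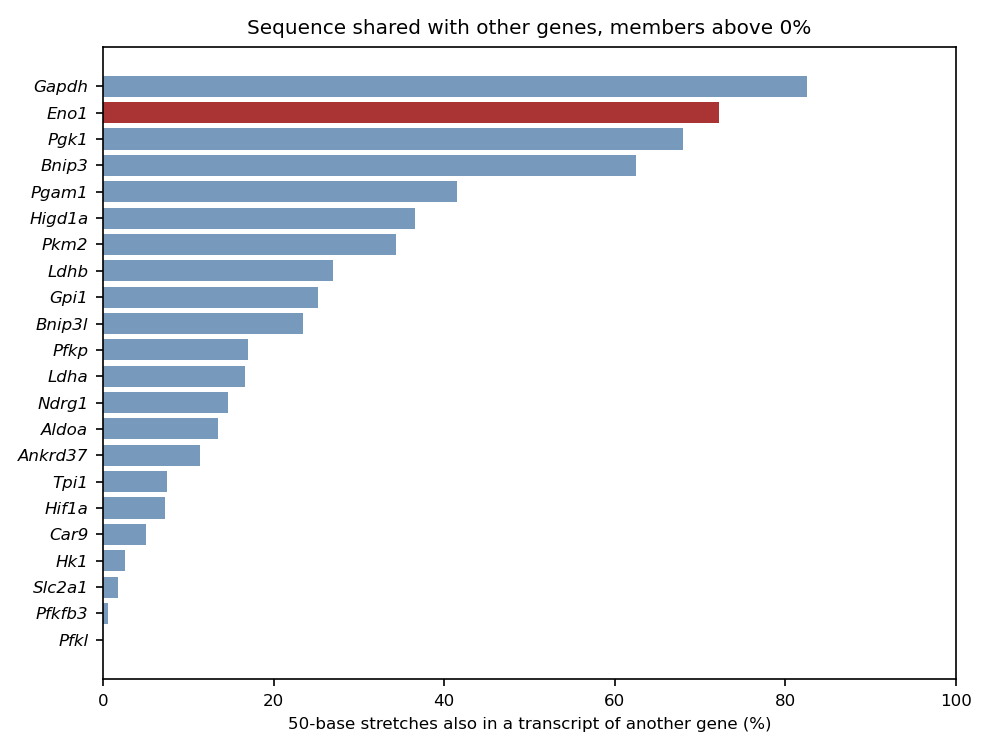
Percentage of the 50-base stretches of each gene's longest coding transcript (x axis) that also occur in an annotated transcript of another gene, for the 22 genes above 0%. Gapdh is highest at 82.5%, and Eno1, in red, whose row held 0 to 5 reads, is at 72.2%.

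Other genes of the same pathways were listed apart. Of 54 other genes of glucose use, such as pyruvate dehydrogenase, glycogen and pentose phosphate enzymes, 43 could be tested, 0 passed by edgeR, DESeq2 or limma-voom, and 16 were above 0, with a median log2 fold change of -0.076. At an unadjusted p under 0.05, 1 of the 43 was higher, Hk3, the hexokinase of leukocytes, and 2 were lower, Pgam2 and Mpc1, near the 3.88% and 1.9% of all genes. Pgam2, the muscle phosphoglycerate mutase, stood at 220.0 and 177 CPM (wildtype) against 154 and 152 CPM (mutant), at -0.38 ± 0.14 with an unadjusted p of 0.0247. The share of Pgam1 in their summed level per kilobase was 45.8% and 45.0% in wildtype and 53.9% and 56.5% in mutant libraries, without overlap. Of the 14 cardiomyocyte markers, 3 were lower without overlap, beside 16.3% of all genes, and 4 lower in both pairs, beside 24.1%. In pair 2, 8 were higher, beside 50.5%. The part of cell makeup in the Pgam2 values was not tested. Mpc1, a subunit of the mitochondrial pyruvate carrier listed under its older symbol Brp44l, stood at 64.0 and 36.1 CPM (wildtype) against 32.4 and 32.8 CPM (mutant), with wildtype replicate 1 far above the rest. Mpc1 also passed without a low count filter and without mutant replicate 2.

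Of 32 other hypoxia response genes, 31 could be tested, 0 passed by edgeR, DESeq2 or limma-voom, and 22 were above 0, with a median of 0.14. At an unadjusted p under 0.05, 5 of the 31 were higher and 0 lower, beside 3.88% and 1.9% of all genes, and with the replicate block 1, Angptl4, was lower. Edn1, which encodes the vasoconstrictor endothelin 1 of endothelial cells, stood at 10.5 and 10.5 CPM (wildtype) against 20.0 and 16.8 CPM (mutant), at 0.81 ± 0.18 with an edgeR adjusted p of 0.210. It passed without a low count filter and without mutant replicate 2. Ero1l, an oxidase of protein folding, stood at 71.5 and 77.8 CPM (wildtype) against 91.5 and 103 CPM (mutant), also without overlap. The others were Hmox1, Pdgfb and Arnt, the beta subunit of HIF, which was high in mutant replicate 1 alone at 99.5 CPM against 56.7 to 68.0 CPM and passed without mutant replicate 2. Vegfa, a HIF target that drives vessel growth, was at 0.081 ± 0.13.

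**Figure D5:**
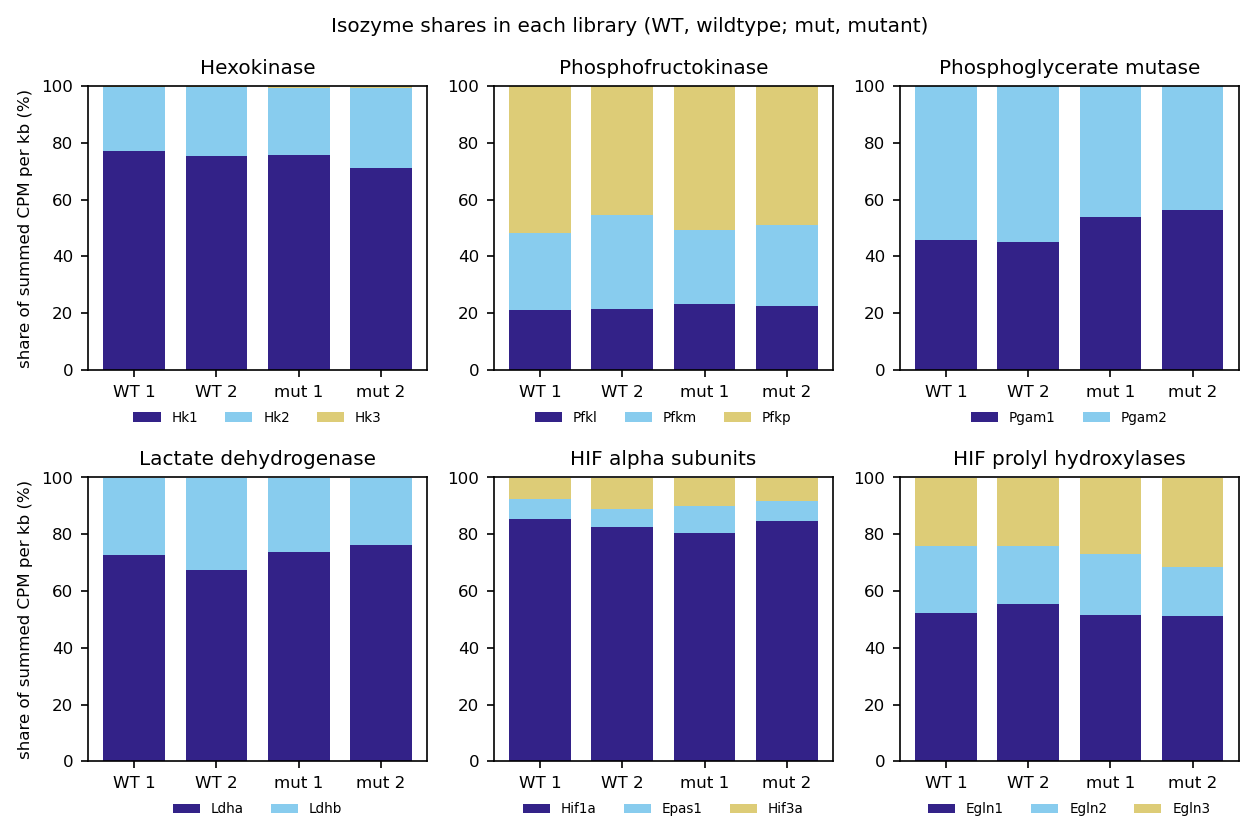
Share (%) of each isozyme or paralogue in the summed CPM per kilobase of exon of its family (y axis) in each library. The share of Pgam1 is higher in both mutant libraries, at 53.9% and 56.5% against 45.0% to 45.8%, that of Pfkl is at 23.4% and 22.4% against 21.2% and 21.4%, and the shares of the HIF alpha subunits overlap between genotypes.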

How the data were processed

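Per the submitters' processing notes, reads were processed with Bowtie2, TopHat2, SAMtools, HTSeq and edgeR on the mm10 build; the sources used here state no version, annotation, strand setting or read length. The authors deposited raw read counts per gene symbol, 1 column per library. Reads outside features made up 51.8% to 54.4% of tallied reads; these rows entered neither library sizes nor tests. The authors' deposited table of their edgeR comparison, per the file headers, holds log2 fold changes (wildtype over mutant, given here as mutant over wildtype), log2 CPM, a likelihood ratio score, p-values, and a fold change ratio for its first rows.

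The test was that of edgeR 4.0.16 (R 4.3.3): TMM scaling, filterByExpr, the quasi-likelihood F test for genotype, Benjamini-Hochberg adjustment over all 14316 genes and a threshold of 0.05. CPM uses TMM-scaled library sizes, and log2 ratios within pairs a prior count of 2. Each SE is the log2 fold change over the root of F. The fits were tested on simulated counts. There the main fit recovered 13 of 67 genes changed 1.5-fold, 19.4%, and 49 of 67 changed 2-fold. It also called 16 genes that were not changed. Members and lists were chosen with earlier results of these data known. Members with an unadjusted p under 0.05, at the extremes or most abundant in a role were to be given in full, and from other lists those past the threshold or with the 2 smallest p. Marker lists are given mainly as sums. The other genes at an unadjusted p under 0.05, Angptl4, Egln2, Hif3a and Vegfa were named after their values were seen. Isozyme shares divide CPM by the union of exons in GENCODE M21. PCR copies cannot be told from molecules, so the 3-read limit covers counting error only. Strand being unknown, reads of overlapping or antisense genes, such as Hk1 and Hk1os, whose annotated transcripts share sequence, cannot be told apart.

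The series describes 2 paired samples of mutants and littermates, and replicate numbers recur in both genotypes. Across genes, which are no independent replicates, the departures from the group mean had a correlation of 0.144 between libraries of 1 number, and of -0.097 over the tested members alone. By the series text the numbers were read as pairs for the ratios within pairs. The labels do not say that a number marks a litter, so the main test left the pairing out. The fit with the block was an alternative, as were RLE and upper-quartile scaling, other filters, DESeq2 1.42.0, limma-voom (limma 3.58.1) and each library left out.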

Additional observations from a re-analysis of the deposited data

How the results depend on the processing

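With the replicate block, DESeq2, limma-voom, RLE or upper-quartile scaling, and with no filter or CPM of at least 5 in 2 libraries, every tested member kept its direction and 0 passed; 32 members passed the stricter filter. Scaling moved the median of all genes by under 0.1 on the log2 scale. With the replicate block the count of genes past the threshold over all genes was 127 against 9, without a filter 236 and by DESeq2 61; the block changed no call of a member or listed pathway gene. Without a filter 2 other pathway genes passed, Edn1 and Mpc1. Leaving out 1 library gave 3 to 443 genes past the threshold, 0 to 2 members, 0 to 4 other pathway genes (without mutant replicate 2: Arnt, Mpc1, Mpc2 and Edn1) and 4 to 14 members higher at an unadjusted p under 0.05, this count and that of members above 0 being added after seeing the data. The single library left in a group then takes its spread from the other group. Log2 fold changes that turned direction with 1 library left out ranged from -0.36 to 0.27 for Higd1a, from -0.076 to 0.036 for Gpi1, from -0.012 to 0.42 for Pfkp, from -0.17 to 0.12 for Ldhb, from -0.41 to 0.10 for Pfkfb4, from -0.11 to 0.14 for Bnip3l, from -0.63 to 0.30 for Car9, from -0.0055 to 0.59 for Ankrd37, from -0.051 to 0.33 for Epas1, from -0.055 to 0.13 for Pfkm, from -0.054 to 0.71 for Aldoc, from -0.090 to 0.48 for Tpi1, from -0.11 to 0.22 for Gapdh, from -0.11 to 0.44 for Pgk1, from -0.096 to 0.31 for Pdk1 and from -0.13 to 0.64 for Bnip3. The cause was not tested. With 2 residual degrees of freedom, or 1 with the block, changes of the size seen here may be missed.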

Other observations

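Rows of the enolase family outside the 37 genes varied between libraries of 1 genotype. Gm5506, the older symbol of the Eno1 retrocopy Eno1b, had 119 and 325 reads in wildtype replicate 1 and mutant replicate 1, and 9 and 3 reads in wildtype replicate 2 and mutant replicate 2. Eno2, the neuronal enolase, measured 4.79 and 5.08 CPM in wildtype replicate 1 and mutant replicate 2, and 11.2 and 13.1 CPM in wildtype replicate 2 and mutant replicate 1. These genes were singled out after their values were seen.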
